A study of Mus musculus with 32 samples.

Results

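Genes that mark resident macrophages of tissues and of the serous cavities were followed in murine mesothelioma. They were chosen by name as Timd4, Lyve1, Folr2, Cd163, Icam2, Prg4, F5, Gata6 and Rarb. Of these 9 genes, 7 were found among the 39676 genes counted, and Gata6 and Rarb were not analysed here. Tumors of 32 mice were sequenced, 8 in each of 4 groups. AB1 cells, a mesothelioma line, were grown in BALB/c mice (500000 cells per mouse), and AE17 cells in C57BL/6 mice (1000000 cells per mouse). Each line was placed in the pleural cavity (intrapleural, IPL, in 200 µL) or under the skin (subcutaneous, SC, in 100 µL). The mice were untreated females of 8 to 10 weeks, and tumors were taken on day 10. Line, strain and number of cells differ together between the models. The RNA came from whole tumors with lungs and surrounding tissue taken off, so that fewer cells of a type and less RNA per cell cannot be told apart.

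Resident macrophages settle in a tissue and persist there, and their identity is set by local signals. In the pleural and peritoneal cavities, large macrophages depend on retinoic acid and on the transcription factor Gata6, and they carry the adhesion molecule Icam2. They also make proteins seldom found in other macrophages, such as coagulation factor V (F5) and lubricin (Prg4). Timd4 is a receptor for phosphatidylserine on dying cells and is carried by long-lived resident macrophages. Lyve1 (a hyaluronan receptor), Folr2 (folate receptor beta) and Cd163 (a scavenger receptor for haemoglobin bound to haptoglobin) mark macrophages that lie along vessels and in connective tissue. Several of these genes are also used by other cells, Lyve1 by lymphatic endothelium, Icam2 by blood endothelium and Prg4 by synovial and fibroblast-like cells.

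Total counts ranged from 15432258 to 20649645 per tumor, and a count of 3 was worth between 0.14 and 0.189 CPM (counts per 1000000 of the TMM-scaled library size). The 7 genes had at least 3 counts in every tumor, and the lowest, at 3 counts, were F5 in AE17 IPL replicate 1 and Timd4 in AE17 IPL replicate 3. Macrophage RNA was plain in all groups. The CPM summed over the 10 general macrophage markers that were counted (C1qa, Cd68, Csf1r and others) had medians of 2828 in AB1 SC, 2155 in AB1 IPL, 2452 in AE17 SC and 2776 in AE17 IPL tumors. Adgre1, Cd14, Lyz2 and Mpeg1 of that list were not analysed here. Lanes did not match the groups. All 8 AB1 IPL tumors and 2 AB1 SC tumors were on lane 3, and the remaining 6 AB1 SC tumors on lane 2. In the AE17 model, 3 IPL tumors shared lane 1 with the 8 SC tumors and 5 IPL tumors ran on lane 2. For the site differences of the 7 genes, values within 1 lane or with lane as a covariate are also given. Over all genes, the 3374 site calls in AB1 became 386 (2.64%) with lane as a covariate and 169 (1.06%) within lane 3, and the 840 in AE17 became 1 (0.00682%) and 14 (0.0911%) within lane 1. Both of these fits take the site difference from the same tumors, those on lane 3 in AB1 and on lane 1 in AE17. They are therefore not separate checks. The tumors are also part of the fit that made the calls, so that a kept direction is no independent check. Of 59 site calls among the marker lists in AB1, all kept their direction, 9 passed with lane as a covariate and 7 within lane 3. Of 18 in AE17, all kept their direction and none passed in either fit, with 17 at an unadjusted p under 0.05 in each (edgeR). The list calls given here are those without lane in the fit unless lane is named.

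The 7 genes lie on 4 chromosomes of GRCm38. Timd4 (chromosome 11, 46810800 to 46844332, plus strand) and Icam2 (chromosome 11, 106377656 to 106388075, minus strand) share a chromosome. Lyve1 (110850607 to 110863239) and Folr2 (101839988 to 101857194) are both on the minus strand of chromosome 7. Prg4 (150449412 to 150466165, minus strand) and F5 (164151838 to 164220277, plus strand) are on chromosome 1, and Cd163 (124304656 to 124330527, plus strand) is on chromosome 6. Exons of Prg4, Folr2 and F5 overlap a gene on the opposite strand, and because no strand setting of the counting is stated, reads in the overlap cannot be assigned with certainty. For Prg4 this neighbor is Tpr, which had between 1461 and 5965 counts per tumor. Tpr had a log2 difference of -0.37 ± 0.23 (SE) between IPL and SC tumors in AB1 (adjusted p = 0.254).

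Sequences before the start site are shown for genes that mark long-lived and perivascular macrophages. Timd4 was taken because its levels in the models did not overlap under the skin. Folr2 and Cd163 were taken because they varied together from tumor to tumor (Pearson's r = 0.509, but 0.357 without AB1 IPL replicate 2). The sequences are those of the reference genome, so that they cannot show a difference between the mouse strains. RefSeq windows on GRCm38.p6 were at hand for 4 of the 7 genes, Timd4, Folr2, Cd163 and F5. Each run is the 250 bases before the start site, 5′ to 3′ on the strand of the gene, with letters searched for in capitals. The letters were GGAAGT (the core bound by Ets factors such as PU.1, the lineage factor of macrophages), AGATAA and TGATAA (bound by GATA factors) and AGGTCA (bound by nuclear receptors, among them those for retinoic acid), on both strands.
Timd4, chr11:46810549-46810798, plus strand: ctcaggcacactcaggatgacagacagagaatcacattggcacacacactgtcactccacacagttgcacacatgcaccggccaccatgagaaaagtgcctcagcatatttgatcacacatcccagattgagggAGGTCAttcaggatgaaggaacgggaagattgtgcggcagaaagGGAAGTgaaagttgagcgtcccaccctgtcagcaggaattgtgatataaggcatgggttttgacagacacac
Folr2, chr7:101857191-101857440, minus strand: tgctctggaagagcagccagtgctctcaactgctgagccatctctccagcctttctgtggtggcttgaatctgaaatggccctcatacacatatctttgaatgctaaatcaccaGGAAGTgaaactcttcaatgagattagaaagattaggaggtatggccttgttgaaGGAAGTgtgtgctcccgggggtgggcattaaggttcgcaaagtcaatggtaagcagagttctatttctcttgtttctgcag
Cd163, chr6:124304401-124304650, plus strand: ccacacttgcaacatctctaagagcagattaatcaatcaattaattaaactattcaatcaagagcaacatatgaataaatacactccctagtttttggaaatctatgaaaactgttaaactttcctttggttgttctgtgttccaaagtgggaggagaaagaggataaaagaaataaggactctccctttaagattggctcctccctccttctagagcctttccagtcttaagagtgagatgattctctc
In the Timd4 window AGGTCA starts 116 bases and GGAAGT 72 bases before the start site. The Folr2 window holds GGAAGT at 136 and at 81 bases before it. None of the 4 searched runs of letters was found in the Cd163 window, nor in a second Folr2 window (chr7:101845332-101845581). In F5 the reverse complement of AGGTCA lies 57 bases before the start site. Over 32851 promoter windows of the same length, GGAAGT was present in 19.7%, AGGTCA in 14%, AGATAA in 9.99% and TGATAA in 7.94%, none of the matches above overlaps another, and neither of the GATA letters was found in any of the 5 windows searched.

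To ask how the pleural cavity and the skin differ, the sites were set against each other in AB1 and in AE17. In AB1, 1 of the 7 genes differed past an adjusted p of 0.05 (Prg4, higher in IPL tumors). Over all 14645 genes tested in AB1, 23% passed and 12.3% were higher, so that 1 of 7 (14.3%) is close to the background. In AE17, 1 of 7 passed (Icam2, higher in IPL tumors), against 5.73% of 14668 genes and 2.6% in that direction. The median log2 difference of the 7 genes was 0.01 in AB1 and -0.53 in AE17, and that of all genes tested was close to 0 in both (-0.0023 and 0.0043).

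**Figure D1:**
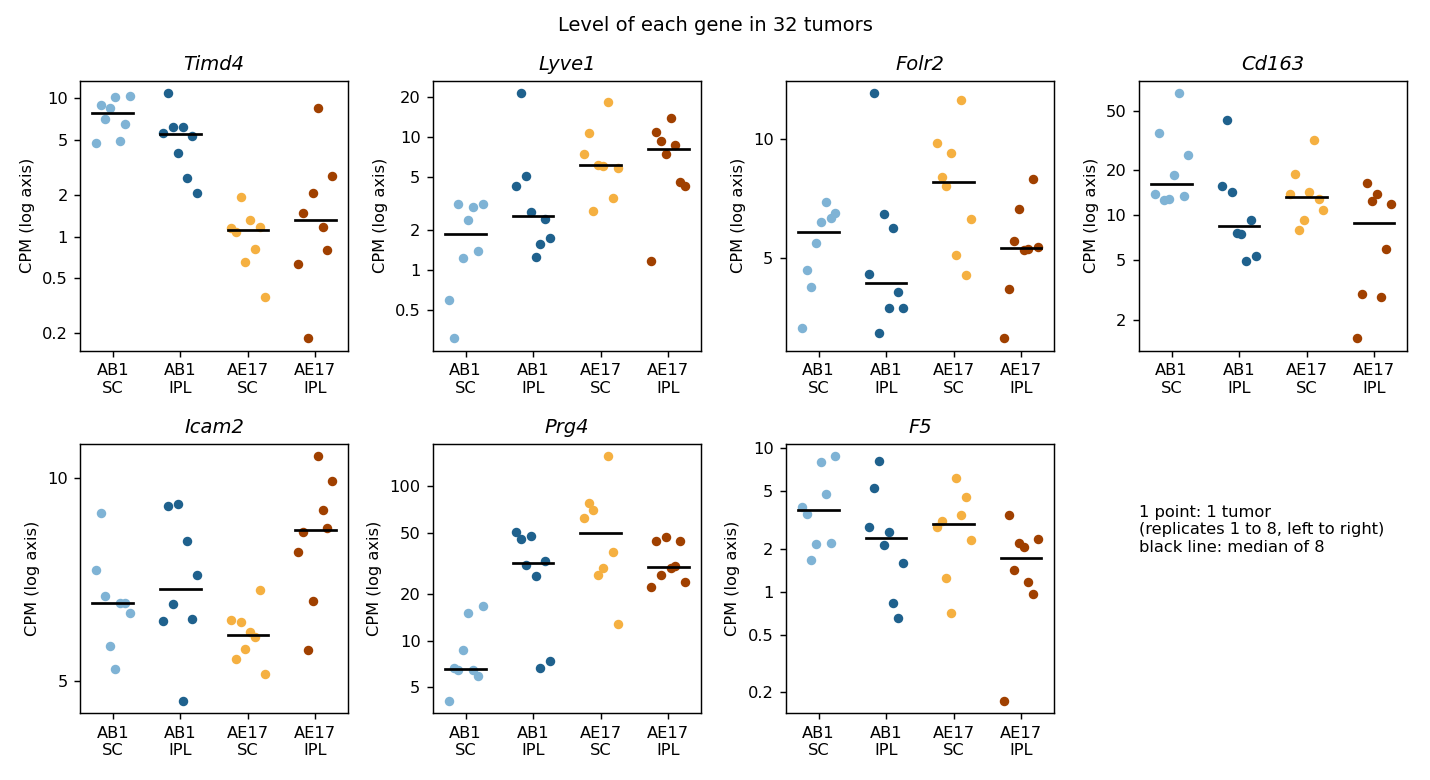
Level of each gene (CPM, log axis) in the 32 tumors, by group. Each point is 1 tumor, replicates 1 to 8 run from left to right, and the black line is the median. Prg4 is low in most AB1 SC tumors (median 6.59 CPM) and Timd4 is low in AE17 SC tumors (highest 1.94 CPM).

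Prg4 encodes lubricin, a lubricating and anti-adhesive proteoglycan of joints and serous surfaces. In AB1 SC tumors its lowest, median and highest levels were 4.08, 6.59 and 16.7 CPM. The AB1 IPL tumors had 6.64, 31.7 and 50.5 CPM. Of these IPL tumors, 6 of 8 lay above every SC tumor, and replicates 6 (6.64 CPM) and 8 (7.39 CPM) fell among the SC values. The log2 difference was 1.79 ± 0.42 (SE, n = 8 against 8, edgeR quasi-likelihood test, adjusted p = 0.00484). Within lane 3 it was 2.45 ± 0.81 with 8 IPL and 2 SC tumors (adjusted p = 0.234), and with lane as a covariate 2.50 ± 0.75 (adjusted p = 0.0902).

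In AE17 tumors the values lay the other way. Prg4 had 12.8, 49.8 and 156 CPM (lowest, median, highest) in AE17 SC tumors and 22.4, 30 and 46.7 CPM in AE17 IPL tumors. All 8 IPL tumors lay below the SC median, inside the range of the SC tumors, and replicate 6 of the SC group stood far above the others. The log2 difference was -0.81 ± 0.39 (adjusted p = 0.202), without SC replicate 6 it was -0.43 (adjusted p = 0.475), and within lane 1 it was -0.85 ± 0.62 (adjusted p = 0.515). The site difference itself differed between the models, by -2.61 ± 0.59 on the log2 scale (AE17 minus AB1, interaction term, adjusted p = 0.00266). Prg4 was the only 1 of the 7 genes past the threshold for the interaction, where 20.5% of 15681 genes passed and 11.9% had a negative term. With lane as a covariate the interaction was -3.36 ± 0.98 (adjusted p = 0.0819).

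Other tissue moved with Prg4 in AB1. The fibroblast markers (Col1a1, Col1a2, Dpt and others) summed to between 3126 and 4381 CPM in AB1 SC and between 3489 and 10360 CPM in AB1 IPL tumors, and 4 of 6 rose while 1 fell. Skeletal muscle markers summed to medians of 272.2 and 1963 CPM, with 7 of 8 higher in IPL tumors, and 3 of 5 adipocyte markers were higher. In AE17 none of 6 fibroblast, 8 skeletal muscle or 6 adipocyte markers passed. With scores for lung epithelium, adipocytes and both kinds of striated muscle in the fit, the log2 difference of Prg4 was 0.50 ± 0.26 (adjusted p = 0.332). With the macrophage score it was 2.36 ± 0.50 (adjusted p = 0.00589). Relative to 1000 CPM of macrophage markers, the median Prg4 level was 2.53 in AB1 SC and 14.2 in AB1 IPL tumors. The part of these tissues in the Prg4 difference was not tested further.

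Icam2, an adhesion molecule of endothelium and of large cavity macrophages, was the gene that rose in AE17 IPL tumors. The AE17 SC tumors had 5.12, 5.86 and 6.83 CPM (lowest, median, highest). In AE17 IPL tumors the values were 5.57, 8.38 and 10.8 CPM. Thus 6 of 8 IPL tumors lay above every SC tumor, and the exceptions were replicates 3 (5.57 CPM) and 4 (6.57 CPM). The log2 difference was 0.51 ± 0.12 (adjusted p = 0.0262). Within lane 1 it was 0.64 ± 0.11 with 3 IPL and 8 SC tumors (adjusted p = 0.0694), and with lane as a covariate 0.64 ± 0.16 (adjusted p = 0.147). The call was lost when AE17 IPL replicate 7 or 8 or AE17 SC replicate 2 or 5 was left out (highest adjusted p = 0.0536).

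In AB1, Icam2 had 5.21, 6.54 and 8.88 CPM in SC and 4.67, 6.85 and 9.18 CPM in IPL tumors. Of the IPL tumors 2 lay above and 1 below every SC tumor, the log2 difference was 0.07 ± 0.14 (adjusted p = 0.748), and within lane 3 it was -0.25 ± 0.23 (adjusted p = 0.73). The interaction for Icam2 was 0.42 ± 0.18 (adjusted p = 0.106), and with lane as a covariate 0.83 ± 0.25 (adjusted p = 0.0898). Blood endothelial markers summed to between 241.9 and 307.8 CPM in AE17 SC and between 238.6 and 445.7 CPM in AE17 IPL tumors, and 1 of 11 (Tie1, 0.41 ± 0.11, adjusted p = 0.0368) rose. Tie1 had 0.34 ± 0.15 (adjusted p = 0.277) with lane as a covariate. The Icam2 difference in AE17 was 0.45 ± 0.11 with the endothelial score in the fit (adjusted p = 0.0153, unadjusted p = 0.00109 where it was 0.00061 without the score). With the macrophage score it was 0.46 ± 0.13 (adjusted p = 0.0804). It also did not pass with the tissue scores (0.505 ± 0.131, adjusted p = 0.231) or with the replicate number as a block (0.487 ± 0.134, adjusted p = 0.0665). The part of endothelium in it was not tested further. In AB1, 5 of 11 endothelial markers rose, among them Eng (0.50 ± 0.16, adjusted p = 0.0269) and Cdh5 (0.42 ± 0.13, adjusted p = 0.0284), and with that score the Icam2 difference was -0.28 ± 0.14 (adjusted p = 0.281).

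F5, the cofactor of factor Xa in coagulation, was the scarcest of the genes in every group when levels were set per kilobase of exon. It had 1.67, 3.69 and 8.81 CPM in AB1 SC tumors and 0.655, 2.36 and 8.14 CPM in AB1 IPL tumors. The AE17 SC tumors had 0.712, 2.96 and 6.16 CPM, and the AE17 IPL tumors 0.174, 1.73 and 3.42 CPM. Ranges overlapped in both models. The log2 differences were -0.56 ± 0.48 (adjusted p = 0.421) in AB1 and -0.81 ± 0.44 (adjusted p = 0.263) in AE17. The AB1 value was -0.97 (adjusted p = 0.131) without IPL replicate 3 and -0.34 (adjusted p = 0.661) without SC replicate 8. Within 1 lane the differences were -0.35 ± 0.76 and -1.01 ± 0.56.

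Timd4 had lower medians in AE17 than in AB1 tumors at both sites. AB1 SC tumors had 4.73, 7.80 and 10.4 CPM (lowest, median, highest). AB1 IPL tumors had 2.06, 5.52 and 10.9 CPM. In the AE17 model the values were 0.365, 1.12 and 1.94 CPM under the skin and 0.184, 1.32 and 8.53 CPM in the pleural cavity. Under the skin, no AE17 tumor reached the lowest AB1 tumor, a separation shared by 30.8% of the genes tested. In the pleural cavity 5 of 8 AE17 tumors lay below every AB1 tumor, and AE17 IPL replicate 5 lay above all AB1 IPL tumors but replicate 2.

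Between the sites Timd4 did not pass in either model. The log2 difference was -0.54 ± 0.28 (adjusted p = 0.185) in AB1 and 1.05 ± 0.56 (adjusted p = 0.253) in AE17, and within 1 lane -0.41 ± 0.51 and 0.56 ± 0.44. The AB1 value passed without IPL replicate 2 (-0.74, adjusted p = 0.0472), and the AE17 value was 0.28 (adjusted p = 0.708) without IPL replicate 5. The interaction was 1.57 ± 0.63 (adjusted p = 0.0763), and it was 0.91 ± 0.91 with lane as a covariate (adjusted p = 0.681) and 0.81 ± 0.69 with the macrophage score (adjusted p = 0.447).

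Lyve1 spread widely within groups. The values were 0.304, 1.87 and 3.12 CPM in AB1 SC, 1.25, 2.55 and 21.2 CPM in AB1 IPL, 2.76, 6.08 and 18.1 CPM in AE17 SC and 1.16, 8.07 and 13.8 CPM in AE17 IPL tumors. In AB1, 3 of 8 IPL tumors lay above every SC tumor, and replicate 2 alone had 21.2 CPM where the next had 5.09. The AB1 log2 difference was 1.39 ± 0.60 (adjusted p = 0.105). Without IPL replicate 2 it was 0.54 (adjusted p = 0.413), and within lane 3 it was 3.42 ± 1.30 (adjusted p = 0.307). With the macrophage score in the fit it was 2.03 ± 0.56 and passed (adjusted p = 0.0203). In AE17 the difference was 0.00 ± 0.43 (adjusted p = 1), and within lane 1 it was -0.38 ± 0.50 (adjusted p = 0.727). The interaction was -1.41 ± 0.75 (adjusted p = 0.193), and -3.85 ± 1.26 with lane as a covariate (adjusted p = 0.114).

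Markers of lymphatic endothelium, which also carries Lyve1, were counted beside it. In AB1, 2 of 5 lymphatic markers rose, Flt4 (the receptor of VEGF-C, 1.11 ± 0.21, adjusted p = 0.00106) and Ccl21a (a chemokine that guides cells into lymphatics, 3.90 ± 0.86, adjusted p = 0.00339), while Nrp2 fell (-0.34 ± 0.10, adjusted p = 0.0179). In AE17, 2 of 7 rose, Flt4 (0.96 ± 0.26, adjusted p = 0.0406) and Reln (2.00 ± 0.48, adjusted p = 0.0263). None of these lymphatic calls passed with lane as a covariate, where Flt4 had 0.71 ± 0.32 in AB1 (adjusted p = 0.275) and 0.81 ± 0.34 in AE17 (adjusted p = 0.27). The median log2 differences of the list genes tested were 1.11 and 1.43, against -0.0023 and 0.0043 for all genes. The summed CPM of the list had medians of 336.7 in AB1 SC and 322.7 in AB1 IPL tumors, so that the sum was not higher in AB1 IPL tumors. In AE17 they were 497.2 in SC and 565.9 in IPL tumors. Across the 32 tumors Lyve1 deviated from its group means with little relation to the lymphatic score (r = 0.05). The part of lymphatic cells in the Lyve1 level was not tested further.

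Folr2 was the steadiest of the perivascular genes. Its levels were 3.33, 5.82 and 6.94 CPM in AB1 SC, 3.25, 4.34 and 13 CPM in AB1 IPL, 4.54, 7.80 and 12.5 CPM in AE17 SC and 3.14, 5.31 and 7.93 CPM in AE17 IPL tumors. All groups overlapped. The log2 difference was 0.01 ± 0.26 (adjusted p = 0.989) in AB1 and -0.53 ± 0.21 (adjusted p = 0.123) in AE17, and within 1 lane 0.42 ± 0.48 and -0.34 ± 0.29. The AB1 value was -0.28 without IPL replicate 2.

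Cd163 had its lowest values in the pleural cavity in both models. AB1 SC tumors had 12.7, 16.2 and 65.2 CPM, and AB1 IPL tumors 4.95, 8.48 and 43.5 CPM. AE17 SC tumors had 7.94, 13.3 and 31.6 CPM, and AE17 IPL tumors 1.51, 8.92 and 16.5 CPM. In AB1, 5 of 8 IPL tumors lay below every SC tumor, and in AE17 it was 4 of 8. The log2 differences were -0.89 ± 0.47 (adjusted p = 0.191) and -0.80 ± 0.43 (adjusted p = 0.254), and within 1 lane -0.92 ± 0.72 and -1.10 ± 0.47 (adjusted p = 0.667 and 0.321). The AB1 value passed in 1 of 16 fits that left out a tumor, the one without IPL replicate 2, which had 43.5 CPM where the next had 15.6. There the difference was -1.41 (adjusted p = 0.0154). Without SC replicate 6 it was -0.49 (adjusted p = 0.45).

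**Figure D2:**
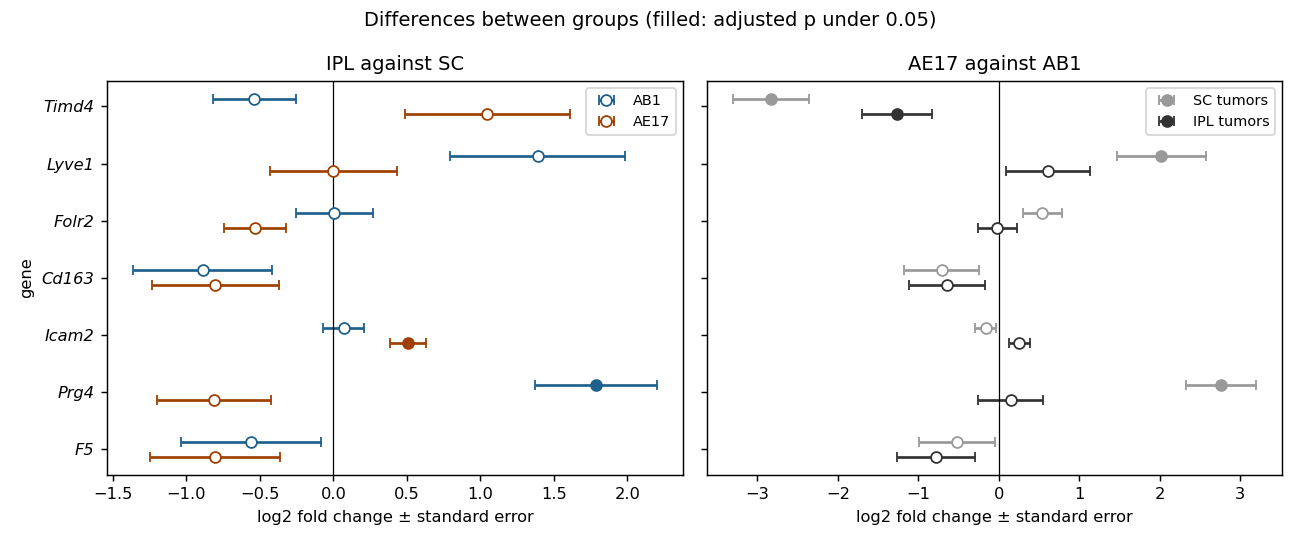
Log2 differences of the 7 genes with their standard errors, IPL against SC in each model (left) and AE17 against AB1 at each site (right). Filled points have an adjusted p under 0.05 (Prg4 in AB1 and Icam2 in AE17 on the left, and Prg4, Lyve1 and Timd4 under the skin and Timd4 in the pleural cavity on the right).

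The models were then compared at each site. Under the skin 3 of the 7 genes differed, against 58.3% of all 15681 genes tested (29.7% higher and 28.6% lower in AE17). AE17 tumors had more Prg4 (log2 difference 2.76 ± 0.44, adjusted p = 2.94e-06) and more Lyve1 (2.01 ± 0.55, adjusted p = 0.00237), with 7 of 8 AE17 tumors above every AB1 tumor for Prg4 and also for Lyve1. They had less Timd4 (-2.83 ± 0.47, adjusted p = 4.88e-06). Folr2 missed the threshold at 0.54 ± 0.24 (adjusted p = 0.0562) and passed with the macrophage score in the fit (0.67 ± 0.22, adjusted p = 0.00812), which made it 4 of the 7 genes, against 60.4% of all genes. In the pleural cavity, Timd4 alone of the 7 genes passed (-1.27 ± 0.44, adjusted p = 0.0128), against 63.4% of all genes and 31.6% lower in AE17. There Prg4 differed by 0.15 ± 0.41 (adjusted p = 0.772) and Lyve1 by 0.61 ± 0.52 (adjusted p = 0.318). At neither site did a lane hold tumors of both models, but AB1 SC and AE17 IPL tumors shared lane 2, so that lane could be a covariate in the fit of 4 groups. Under the skin the differences were then 2.62 ± 0.79 for Prg4 (adjusted p = 0.0108), -2.18 ± 0.82 for Timd4 (adjusted p = 0.0403) and 2.22 ± 0.93 for Lyve1 (adjusted p = 0.066), where 33.6% of all genes passed. In the pleural cavity none of the 7 genes passed, and Timd4 had -1.27 ± 0.89 (adjusted p = 0.293, unadjusted p = 0.162), where 31.9% of all genes passed.

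Relative to 1000 CPM of macrophage markers, Timd4 had medians of 3.02 in AB1 SC and 2.64 in AB1 IPL tumors, against 0.423 in AE17 SC and 0.462 in AE17 IPL tumors. With the macrophage score in the fit, the AE17 to AB1 difference in Timd4 was -2.75 ± 0.44 under the skin (adjusted p = 2.89e-06) and -1.94 ± 0.49 in the pleural cavity (adjusted p = 0.0013).

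The order of the 4 groups differed from gene to gene. For Timd4 the medians ran AB1 SC, AB1 IPL, AE17 IPL, AE17 SC from high to low, and the neighbors of the same model did not differ past the threshold. For Prg4 they ran AE17 SC, AB1 IPL, AE17 IPL, AB1 SC, with AB1 IPL and AE17 IPL not differing and AB1 SC below both of the groups it was tested against. For Lyve1 the order was AE17 IPL, AE17 SC, AB1 IPL, AB1 SC, and the step within each model did not pass. The medians of Cd163 and F5 were highest in AB1 SC tumors, that of Icam2 in AE17 IPL and that of Folr2 in AE17 SC tumors.

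Per kilobase of exon, which allows levels of different genes to be set side by side, the ranking also changed with the group. In AB1 SC tumors Folr2 (median 3.77 CPM per kilobase), Timd4 (3.59) and Icam2 (3.43) led, with ranges that overlapped. In the other groups Prg4 led, with medians of 7.40 in AB1 IPL, 11.6 in AE17 SC and 7.01 CPM per kilobase in AE17 IPL tumors. Timd4 stood in the sixth place of 7 in both AE17 groups (0.517 under the skin and 0.609 in the cavity), where Lyve1 (2.08 and 2.76) stood above it.

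Single tumors carried several of the genes at once. AB1 IPL replicate 2 had the highest Timd4 (10.9 CPM), Lyve1 (21.2 CPM) and Folr2 (13 CPM) of all 32 tumors and the highest Cd163 of its group (43.5 CPM). The same tumor ranked first of its group for the summed general macrophage markers (3307 CPM), perivascular macrophage genes (2545 CPM), haem and iron handling genes (1651 CPM) and fibroblast markers (10360 CPM), also for large and small cavity macrophage, lymphatic and liver genes, and last for skeletal muscle markers (103.7 CPM). AE17 SC replicate 6 led its group in Prg4 (156 CPM), Lyve1 (18.1 CPM), Cd163 (31.6 CPM) and Folr2 (12.5 CPM), with general macrophage markers at 1979 CPM, the seventh of 8. It ranked first of its group for fibroblast (11600 CPM), skeletal muscle (1224 CPM), perivascular macrophage (2065 CPM), haem and iron handling (1611 CPM), large cavity macrophage (1172 CPM), retinoic acid (1240 CPM), mesothelial (142.9 CPM) and platelet (30.09 CPM) sums, and last for cardiac muscle. AB1 SC replicate 8 led its group in Timd4 (10.4 CPM), Lyve1 (3.12 CPM), Prg4 (16.7 CPM) and F5 (8.81 CPM). Its general macrophage sum (3048 CPM) was the third of 8 and its fibroblast sum (3877 CPM) the second, and it ranked first for platelet (14.24 CPM) and liver (3.436 CPM) markers. AE17 IPL replicate 5 led its group in Timd4 (8.53 CPM), Lyve1 (13.8 CPM) and Icam2 (10.8 CPM). That tumor had the highest adipocyte (1113 CPM), cardiac muscle (243.3 CPM), fibroblast (13000 CPM) and blood endothelial (445.7 CPM) sums of all 32, and ranked first of its group for skeletal muscle (775.7 CPM), mesothelial, platelet, liver and small cavity macrophage sums. At the other end, AE17 IPL replicate 1 was lowest of its group in 5 of the 7 genes.

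**Figure D3:**
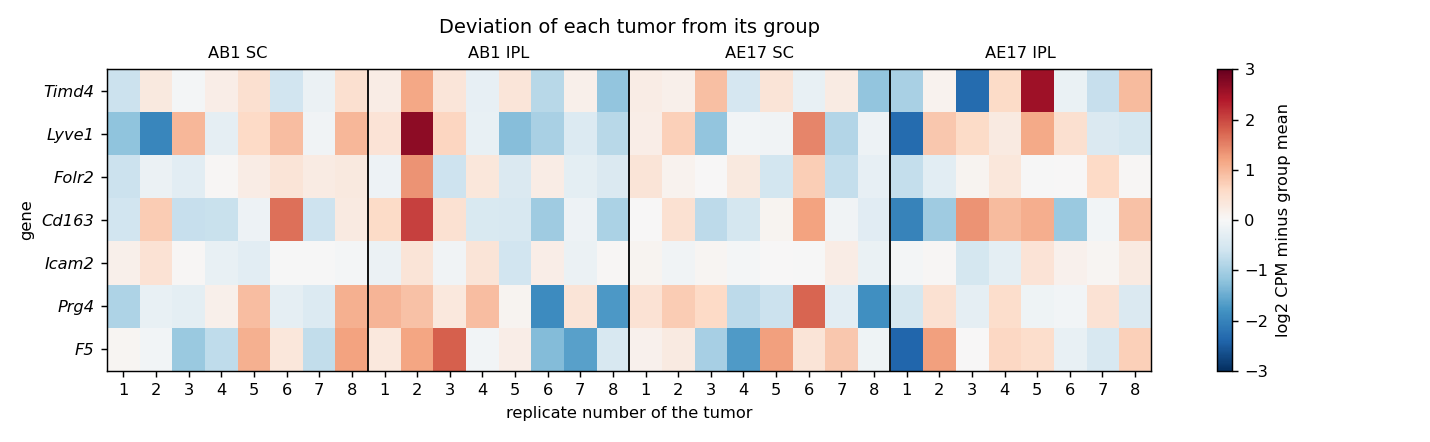
Deviation of each tumor from the mean of its group (log2 CPM, color scale) for the 7 genes, with tumors ordered by group and replicate. AB1 IPL replicate 2 is red for every gene, and AE17 IPL replicate 1 is blue for Lyve1, Cd163 and F5.

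The genes were next compared with each other after the group means were taken out, over the 32 tumors. These tumors share lanes, depth and the content of other tissue, and the correlations are given as a description. Lyve1, Folr2 and Cd163 varied together, with r = 0.59 for Lyve1 and Cd163, 0.585 for Lyve1 and Folr2, and 0.509 for Folr2 and Cd163. F5 followed Cd163 (r = 0.57) and Lyve1 (r = 0.524). Icam2 stood apart from the perivascular genes, with r between -0.004 and 0.166 to Lyve1, Folr2 and Cd163. Over the 21 pairs the median r was 0.375, and 5 pairs exceeded 0.5, where 7.20% of all pairs among 13918 genes did.

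AB1 IPL replicate 2 added to these values. Without it, r was 0.481 for Lyve1 and Cd163, 0.425 for Lyve1 and Folr2, and 0.357 for Folr2 and Cd163, and the median over the pairs was 0.338. Of the 21 pairs 1 then exceeded 0.5 (Cd163 and F5, 0.535), where 7.54% of all pairs did. Timd4 and Prg4 varied together in AB1 (r = 0.81 over 16 tumors) and less in AE17 (0.234). Timd4 and Icam2 did the reverse, with r = 0.755 in AE17 and -0.164 in AB1.

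**Figure D4:**
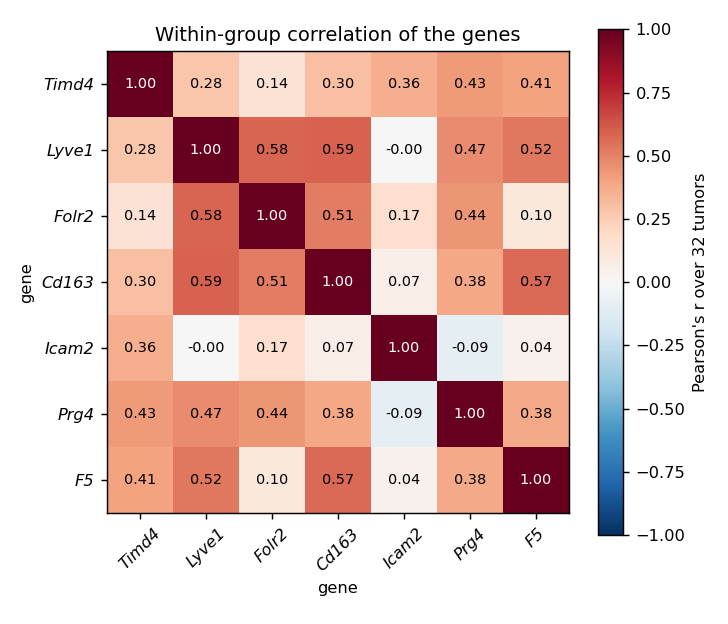
Pearson's r between the 7 genes over 32 tumors after group means were removed (color scale and numbers). Lyve1, Folr2, Cd163 and F5 hold the 5 pairs over 0.5 (1 pair without AB1 IPL replicate 2), and Icam2 is near 0 with Lyve1, Cd163 and F5.

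The genes closest to each of the 7 in this measure, among 13918 tested in both models, were also named. Cd163 was closest to Gas6 (r = 0.819), the bridging ligand of TAM receptors, then to Stard8 (0.818) and Serpina3m (0.814). Folr2 was closest to Sgsh (0.792), a lysosomal sulfatase, then to Stard8 (0.779) and Cbr2 (0.766). Lyve1 came with Selenbp1 (0.814), the chemokine receptor gene Ackr3 (0.773) and Ror1 (0.766). Timd4 came with the calcium channel gene Cacna1e (0.86), Zfp831 (0.846) and Il16 (0.839), a cytokine of lymphocytes.

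Prg4 lay closest to Tnxb (r = 0.829), an extracellular matrix gene of connective tissue, then to Zfr2 (0.81) and Iqsec2 (0.801). Icam2 lay closest to Erp29 (0.835), Vav2 (0.77) and Ndufaf3 (0.734). The nearest genes of F5 were less close, Pdgfd (0.708), Gria3 (0.707) and the prostaglandin-degrading enzyme Hpgd (0.704). Among the marker scores, Cd163 went with perivascular macrophage genes (r = 0.815, of which Gas6 and Cbr2 are members), Lyve1 with the same genes (0.725), Icam2 with blood endothelium (0.625) and Prg4 with fibroblasts (0.712). Timd4 went with haem and iron handling genes (0.768), with adipocyte markers (0.693) and with large cavity macrophage genes (0.689). The large cavity macrophage genes also went with Lyve1 (0.72) and with F5 (0.699).

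Other genes of large serous cavity macrophages moved in both directions. In AB1, 2 of the 17 tested were higher and 4 lower in IPL tumors, with a median log2 difference of 0.10. Tgfb2, a growth factor of the TGF-beta family, rose by 2.07 ± 0.26 (adjusted p = 3.92e-05), and Thbs1, a matrix glycoprotein, by 0.45 ± 0.16 (adjusted p = 0.0483). Nt5e, the ectoenzyme CD73, had a log2 difference of -0.73 ± 0.24 (adjusted p = 0.0354) and Bhlhe40, a transcription factor of cavity macrophages, of -0.54 ± 0.13 (adjusted p = 0.00599). F10, the coagulation factor that F5 serves as a cofactor, showed the largest difference among the 17 genes of the list tested in AB1 (-3.28 ± 0.38, adjusted p = 2.64e-05). In AE17, 2 of 17 were higher and none lower. These were Alox15, a lipoxygenase (2.08 ± 0.58, adjusted p = 0.047), and Padi4, a peptidylarginine deiminase (1.23 ± 0.19, adjusted p = 0.00512). With lane as a covariate F10 (-3.22 ± 0.50, adjusted p = 0.00321) and Tgfb2 (1.804 ± 0.43, adjusted p = 0.0361) passed in AB1, and within lane 3 F10 alone of the list (-3.26 ± 0.49, adjusted p = 0.0171). In AE17, Alox15 had 2.24 ± 0.73 (adjusted p = 0.198) and Padi4 1.29 ± 0.24 (adjusted p = 0.0887) with lane as a covariate. F10, Alox15 and Padi4 were singled out after their values were seen.

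Genes of small cavity macrophages and monocyte-derived cells were lower in AB1 IPL tumors, 9 of 9 tested, with a median log2 difference of -1.37. Among them Ccr2, the receptor that brings monocytes out of the marrow, differed by -1.17 ± 0.23 (adjusted p = 0.00159), Itgax (CD11c) by -2.15 ± 0.22 (adjusted p = 9.01e-06) and H2-Aa, an MHC class II chain, by -1.17 ± 0.25 (adjusted p = 0.0025). In AE17, 2 of 9 were lower and Ccr2 had -0.36 ± 0.15 (adjusted p = 0.151). With lane as a covariate 3 of the 9 passed in AB1 and the same number within lane 3, among them Itgax (-2.26 ± 0.30, adjusted p = 0.00139, and -2.31 ± 0.17, adjusted p = 0.000574), while Ccr2 had -1.12 ± 0.35 (adjusted p = 0.104) and H2-Aa -1.13 ± 0.37 (adjusted p = 0.127) with the covariate. General macrophage markers also were lower in AB1 IPL tumors, 4 of 10 tested, such as Tyrobp (-0.56 ± 0.13, adjusted p = 0.00399) and C1qa (-0.44 ± 0.15, adjusted p = 0.0418), and none of 10 passed in AE17. None of the 4 passed with lane as a covariate.

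Perivascular and interstitial macrophage genes, the list closest to Lyve1, Folr2 and Cd163 in kind, were lower in 5 of 15 cases in AB1 and in 2 of 14 in AE17, with none higher. The mannose receptor Mrc1 had -0.94 ± 0.24 (adjusted p = 0.00845) in AB1 and -0.15 ± 0.17 (adjusted p = 0.628) in AE17. The chemokine Ccl8 had -1.87 ± 0.26 (adjusted p = 0.000124) and -0.66 ± 0.28 (adjusted p = 0.152). Ninj1 fell in AB1 (-0.63 ± 0.15, adjusted p = 0.00553). In AB1 Ccl8 passed with lane as a covariate (-1.83 ± 0.38, adjusted p = 0.0167), and Mrc1 had -0.83 ± 0.36 (adjusted p = 0.266). Of 7 haem and iron handling genes none passed in AB1, and 1, the iron exporter Slc40a1, was lower in AE17 (-0.86 ± 0.19, adjusted p = 0.0214).

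Retinoic acid, which maintains large cavity macrophages, was followed through 16 genes of its pathway. In AB1 IPL tumors 4 rose and 2 fell, and in AE17 IPL tumors 1 rose and 3 fell, with medians of 0.16 and -0.10. Stra6, which takes up retinol, rose in both models (1.19 ± 0.18, adjusted p = 0.000188, and 0.55 ± 0.14, adjusted p = 0.0373). Crabp1, a retinoic acid binding protein, fell in both (-4.22 ± 0.45, adjusted p = 1.32e-05, and -1.56 ± 0.31, adjusted p = 0.0143). Crabp2 rose in AB1 (0.54 ± 0.11, adjusted p = 0.00128), and the receptor gene Rarg fell in AE17 (-0.41 ± 0.10, adjusted p = 0.029). Of these calls, with lane as a covariate, only Crabp1 in AB1 passed (-4.68 ± 0.54, adjusted p = 0.000399). Stra6 then had 0.75 ± 0.26 in AB1 (adjusted p = 0.14) and 0.34 ± 0.18 in AE17 (adjusted p = 0.362), and Crabp1 in AE17 had -1.48 ± 0.46 (adjusted p = 0.191).

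Markers of further tissues were counted as well, and some of them differed between the sites. Alveolar macrophage markers, of which 2 of 4 tested fell in AB1 and 1 of 3 in AE17, had median sums of 33.16 CPM in AB1 SC, 7.346 in AB1 IPL, 12.38 in AE17 SC and 16.34 CPM in AE17 IPL tumors. The sums were thus highest in AB1 tumors under the skin, away from the lung, and which cells carried these genes was not tested. Mesothelial markers reached median sums of 682 and 867.2 CPM in AB1 SC and IPL tumors and 56.53 and 39.13 CPM in AE17 SC and IPL tumors. Of these, 1 of 2 tested rose in AB1 and none of 3 passed in AE17. Cardiac muscle markers rose in 2 of 4 cases in each model, with 1 falling in AB1. Lung epithelial markers summed to at most 12.18 CPM and liver markers to at most 5.118 CPM in any tumor, and none of them passed. Of the megakaryocyte and platelet markers none of 2 passed in AB1 and 1 of 3 fell in AE17. Among the calls of these further lists, only the alveolar list gene Car4 in AB1 passed with lane as a covariate (-3.16 ± 0.585, adjusted p = 0.00863).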

How the data were processed

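RNA from 32 tumors (4 groups of 8) was analysed. The authors deposited raw counts of reads per gene, without normalization, from 50 bp single-end reads of polyA RNA. Their processing notes name bcl2fastq 1.8.4 and HISAT2 2.0.4, and their methods name a mouse genome (mm11) and counting with SummerizeOverlaps. Ambiguous and multiply mapped reads may be treated differently under other settings, which are not given in the sources used here. Coordinates came from GENCODE M21 (GRCm38), which held 39495 of the 39676 gene identifiers when versions were ignored. Groups came from the sample titles and lanes from the column names.

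Counts were analysed in R 4.3.3 with edgeR 4.0.16 (filterByExpr, TMM, robust quasi-likelihood fits, two-sided F tests). The sites were tested separately in AB1 and AE17, and the interaction and the comparisons of models came from 1 fit of 4 groups. Benjamini-Hochberg adjustment covered all genes tested, with a threshold of 0.05. The standard error is the log2 difference divided by the square root of F. All 7 genes passed the filter in both models. Log2 CPM for correlations used a prior count of 2. A count of 3 was taken as the detection limit, which covers counting error only, since reads carry no molecular identifiers. In the 112 pairs of tumors of a group, chi-square divided by its degrees of freedom was at least 5.92, so none was a copy. The replicates are separate mice, as the study describes them.

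The 9 genes and all marker lists were chosen with earlier results of these data known. Named genes are the members, at most 4 genes of each list with the highest mean CPM among those past the threshold, and the 3 genes closest to each member. F10, Alox15 and Padi4 lie outside this rule (picked with their values in view), and Tpr is named because it overlaps Prg4. One gene of a list is not reported here. On simulated counts, 76.1% of 92 genes changed by 1 on the log2 scale and 98% of 102 changed by 2 were called in AB1 (14542 genes, 5 false calls), and 90.4% of 83 and 98.2% of 110 in AE17 (14520 genes, 6 false calls). Alternatives were DESeq2 1.42.0, other normalizations, no filter, 1 joint fit, a replicate block, lane, marker scores as covariates, a stricter threshold and leaving out each tumor. Leaving AB1 IPL replicate 2 out of the correlations, lane as a covariate in the comparisons of models and lane for the marker lists were chosen after seeing the data. Plots were drawn with matplotlib 3.10.9.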

Additional observations from a re-analysis of the deposited data

Results flagged for a closer look

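Of the 28 sets of 8 tumors (7 genes in 4 groups), 8 held a tumor far from the rest of its group on the CPM scale and 1 on the log2 scale. The rule marks about 1 in 20 by chance where values have a normal spread. That was not shown for CPM, so the rate is no measure for these 8 sets. AB1 IPL replicate 2 accounts for 4 of them, with Timd4 at 10.9 CPM (next 6.25), Lyve1 at 21.2 (next 5.09), Folr2 at 13 (next 6.46) and Cd163 at 43.5 (next 15.6). AE17 SC replicate 6 stood out in Cd163 (31.6 CPM, next 18.9) and Prg4 (156 CPM, next 78.0). Timd4 in AE17 IPL replicate 5 was 8.53 CPM (next 2.73) and Cd163 in AB1 SC replicate 6 was 65.2 CPM (next 35.2). F5 in AE17 IPL replicate 1 was low, at 0.174 CPM (3 counts, the detection limit, next 0.969 CPM), on the log2 scale.

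The site difference was not the same in the models (interaction term, AE17 minus AB1, log2) for Prg4 at -2.61 (adjusted p = 0.00266). Among macrophage genes it was 0.39 for Cd68, 0.67 for C1qa, 3.23 for Alox15, -2.45 for Tgfb2, 3.15 for F10, 0.80 for Ccr2, 0.90 for Ly6c2, 1.82 for Itgax, 1.19 for Ccl8, 0.61 for Ninj1 and -1.30 for Slc40a1. Retinoic acid genes differed as well, by -0.46 for Rarg, 2.64 for Crabp1, -1.03 for Crabp2 and -0.66 for Stra6. Fibroblast markers differed by -1.31 for Col1a1, -0.94 for Col1a2, -1.255 for Dpt and 0.94 for Thy1. All of these had an adjusted p under 0.05 by edgeR's quasi-likelihood test. With lane as a covariate the interaction passed for 117 of 15681 genes. It kept its direction in 43 of 43 list genes called without lane, but both fits use the same tumors. Of these list genes Tgfb2 (-2.26, adjusted p = 0.0379), Itgax (1.89, adjusted p = 0.0442) and Crabp1 (3.18, adjusted p = 0.0432) passed and the others did not.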

How the results depend on the processing

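In AB1 the number of the 7 genes past the threshold went from 1 to 0 with the replicate number as a block (Prg4 1.69, adjusted p = 0.0529, where 15.5% of all genes passed), lane as a covariate (2.64%), within lane 3 (1.06%), or with the endothelial (Prg4 1.71, adjusted p = 0.0673, 8.18%) or tissue scores (4.76%), and to 2 with the macrophage score (20.8%), against 23% without them. It was 1 to 3 when a tumor was left out (19.4% to 24.7% of all genes), and Prg4 passed in 16 of 16 such fits. In AE17 it was 0 with the replicate block (Icam2 0.49, adjusted p = 0.0665, where 4.51% of all genes passed), lane (0.00682%), within lane 1 (0.0911%), the macrophage score (Icam2 0.46, adjusted p = 0.0804, 1.83%), the tissue scores (Icam2 0.51, adjusted p = 0.231, 0%) or an adjusted p under 0.01 (0.511%), against 5.73%, and 0 to 1 when a tumor was left out (2.14% to 14%). The interaction count was 0 with lane (0.746% of all genes) and 2 with the macrophage score (10.3%, Prg4 -3.17, Folr2 -1.10, adjusted p = 0.0402). With lane, chosen after seeing the data, the count between models went from 3 to 2 under the skin and from 1 to 0 in the pleural cavity. The cause was not tested. The replicate numbers did not pair the samples in AB1 (correlations from -0.334 to 0.035, 0 of 8 pairs over 0.1). Whether they did in AE17 is not settled, with correlations from -0.298 to 0.313 and 5 of 8 pairs over 0.1. The median r over pairs was 0.375, and 0.234 within AE17.

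The AE17 difference of Lyve1, 0.00 ± 0.43, had no direction. It was positive with the macrophage score (0.30), and the other values were those of DESeq2 (-0.007), its size factors (-0.005), total counts (0), no filter (-0.01), the block (-0.01), lane (-0.37), within lane 1 (-0.38), the endothelial (-0.19) and tissue scores (-0.41) and 1 joint fit (-0.004), and ranged from -0.20 to 0.32 without a tumor. Changes of sign, none past the threshold in either fit, were F5 in AE17 with tissue scores (0.007), Folr2 in AB1 with the block (-0.11) or endothelial score (-0.30) and from -0.28 to 0.089 without a tumor, and Icam2 in AB1 with lane (-0.20), within lane 3 (-0.25), the endothelial score (-0.28) and from -0.015 to 0.14 without a tumor. Between models these were Cd163 in the interaction (-0.28 with the macrophage score, -0.24 with lane), and in the pleural cavity Folr2 with the block (0.056) and Prg4 with the macrophage score (-0.28) or lane (-0.73), and Lyve1 with lane (-1.62). Over all genes, calls ranged from 169 (within lane 3) to 4497 (DESeq2) in AB1. In AE17 they ranged from 0 (tissue scores, edgeR, with 1347 genes at an unadjusted p under 0.05) to 2313 (endothelial score), with 1768 by DESeq2.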
